A study of Rattus norvegicus with 4 samples.

Results

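The features described here are those whose RNA level responded differently to phenylephrine when the long noncoding RNA Chaer was targeted by siRNA. They number 60 of the 26406 features listed for neonatal rat ventricular myocytes, the beating muscle cells of the newborn heart grown in primary culture. Only features averaging 1 RPKM or more over the libraries, 12226 in all, were considered, where RPKM is the number of reads per kilobase of the gene model, corrected for library depth. For each siRNA, the response was the log2 of (RPKM + 1) with phenylephrine over (RPKM + 1) without. A feature was a member when the response under control siRNA, subtracted from that under Chaer siRNA, left at least 1 in size, which is 2-fold. Features were left out when both phenylephrine ratios, or both siRNA ratios, were at least 1 or at most -0.8, which removed 6 of 66. The difference was positive for 34 members and negative for 26. The members were thus chosen by these measured ratios, so everything said of the differences below is a description without a test.

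All cells came from 2-day-old Sprague Dawley rats, were kept in medium with 1% ITS and were transfected for 6 h. The 4 libraries were negative control siRNA (siNeg), Chaer siRNA (siChaer), and each siRNA followed by 50 µM phenylephrine (siNeg PE, siChaer PE), collected after 48 h. Each group was 1 library, and whether any of them shared a preparation of cells is not stated. No value therefore has an error between cultures, and the 95% intervals given cover counting error only. Because the reads carry no molecular identifiers, copies of the same molecule cannot be recognised, and the reads may not be independent molecules. In such bulk RNA, fewer cells of a type and less RNA per cell cannot be told apart.

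Phenylephrine is an agonist of α1-adrenergic receptors. It acts through Gq-coupled signalling, and in cultured ventricular myocytes it brings about cell growth and a return of genes of the fetal heart, a standard model of cardiac hypertrophy. Chaer is known as a heart-enriched noncoding RNA that binds polycomb repressive complex 2, which places a repressive methyl mark on histone H3 at silent genes. The comparison addressed here is whether siRNA against Chaer alters the transcriptional response to the agonist.

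Of the listed features, 26405 carried only an Ensembl identifier and 1, the imprinted noncoding RNA H19, carried a symbol. The reference table (RefSeq, assembly GRCr8) paired 0 of the identifiers with a symbol. The members are therefore given by identifier for 2 of each sign and otherwise by the length of the gene model and rank. No pathway list or cell type marker could be read, and no sequence is shown. Chaer itself could not be looked up among the identifiers, so whether its siRNA lowered it was not checked. H19 was not a member, with a log2 difference of 0.37. The libraries held between 33944988 and 39155363 reads in listed features, and read totals recovered from the counts and RPKM were 35314303 to 40835172. Reads outside the listed features made up 3.88% to 4.29%.

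A difference of at least 2-fold was positive for 39 of the 12226 features, 0.319%, and negative for 27, 0.221%, before the exclusions, in all 66 or 0.540%. The rule fixed these shares, and they say nothing of the members. Over all 12226 features the median difference was -0.06, so positive members lay slightly farther from the bulk than negative ones. The balance of the signs depended on the scaling between libraries. It was 34 positive to 26 negative with RPKM as deposited, 46 to 22 with median-ratio size factors, and 59 to 18 when the 20 most abundant features were left out of the scaling.

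**Figure D1:**
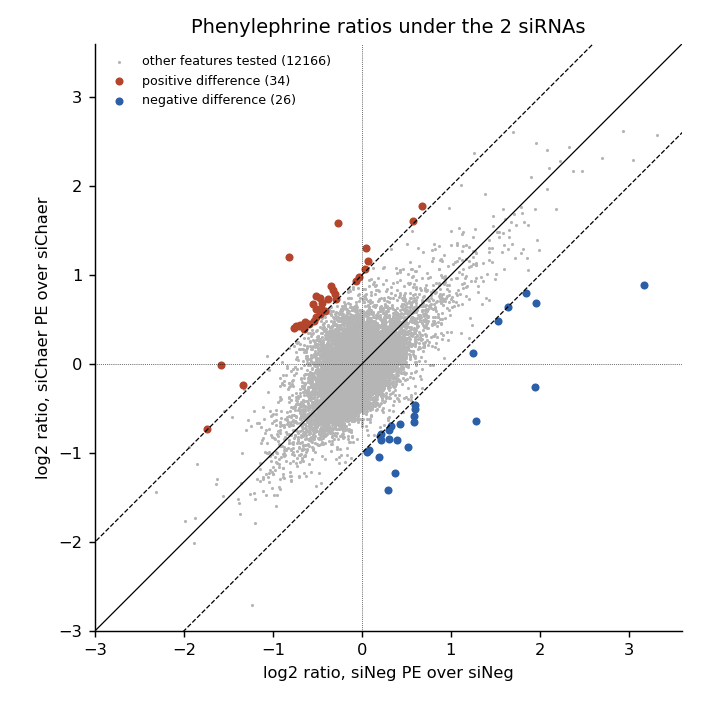
The log2 ratio of (RPKM + 1) with over without phenylephrine is plotted for Chaer siRNA (vertical) against control siRNA (horizontal), 1 point per feature. Solid line, equal ratios. Dashed lines, a difference of 1 in either direction. The 34 positive members (red) lie mostly in the quadrant of lower with control and higher with Chaer siRNA, and the 26 negative members (blue) mostly in the opposite one.

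By sign alone, most members had phenylephrine ratios of opposite direction under the siRNAs, called a crossing here, as the plot of these ratios shows. Of the 34 positive members, 26 were lower with phenylephrine under control siRNA and higher under Chaer siRNA, as were 1920 of all 12226 features (15.7%). Another 5 positive members (14.7%) were higher under both siRNAs and 3 (8.82%) were lower under both, beside 22.2% and 44.8% of all features. Of the 26 negative members, 20 were higher under control siRNA and lower under Chaer siRNA, as were 2112 of all features (17.3%). The other 6 negative members (23.1%) were higher under both, a share near that of all features, and 0 were lower under both. Since the rule asks for ratios at least 1 apart, a crossing is favoured by the choice. A crossing had no minimum size, so members almost flat under control siRNA are included. Among them were a positive member with log2 ratios of -0.03 under control and 0.98 under Chaer siRNA, and a negative one with 0.05 and -0.99.

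Single ratios of the members were mostly below 2-fold. Among positive members, 7 were at least 2-fold higher with phenylephrine under Chaer siRNA (1.10% of all features) and 0 under control siRNA (1.12%). At least 2-fold lower under control siRNA were 3 positive members (0.605%). Among negative members, 8 were at least 2-fold higher under control siRNA, and 3 were at least 2-fold lower under Chaer siRNA (0.875%). The median positive member had log2 ratios of -0.47 with control and 0.68 with Chaer siRNA, beside -0.07 and -0.10 for all features. The median negative member had 0.47 and -0.68. These medians are taken over each ratio separately and do not describe the members whose ratios had the same sign under both siRNAs.

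Read across the other way, most members differed between the siRNAs in opposite directions without and with the agonist. The gap between the siRNA ratios is the same quantity as the gap between the phenylephrine ratios. Opposite directions are therefore favoured by the choice here too, and are not a separate result. Of the positive members, 29 of 34 were lower with Chaer siRNA in unstimulated cells and higher with it under phenylephrine, beside 13.6% of all features. Of the negative members, 24 of 26 were higher with Chaer siRNA at rest and lower with it under phenylephrine, beside 19.9% of all features. The larger siRNA ratio of the pair was the unstimulated one for 23 of 34 positive members (67.6%) and for 8 of 26 negative members (30.8%), beside 53.7% of all features. At least 2-fold lower with Chaer siRNA at rest were 7 positive members (1.11% of all features). At least 2-fold lower with it under phenylephrine were 7 negative members (0.851%). At least 2-fold higher with Chaer siRNA were 3 negative members at rest (1.02%) and 2 positive members under phenylephrine (0.998%).

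**Figure D2:**
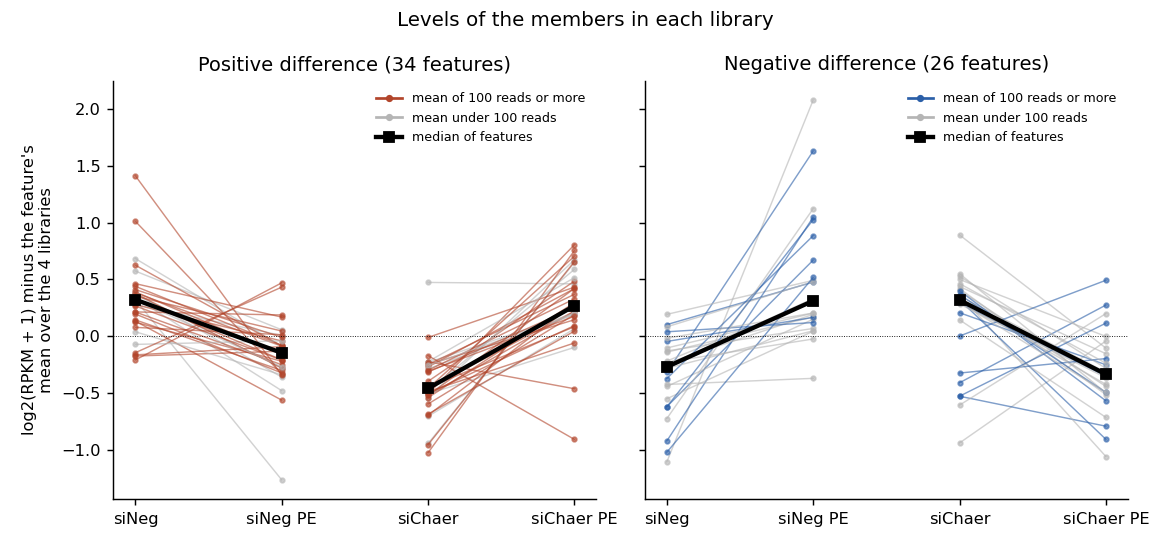
Each thin line is 1 member, shown as log2(RPKM + 1) minus the member's own mean over the 4 libraries, and lines join the libraries of the same siRNA. Black squares are medians over members, with no error because each group is 1 library. In the median, positive members (left) are lower in siNeg PE than in siNeg and higher in siChaer PE than in siChaer, and negative members (right) are the reverse.

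Each member was also described by the library lying farthest from the median of the other 3 on the log2 scale. Among the 34 positive members this was siChaer, lying below the others, for 14, siNeg above for 9, siChaer PE above for 9 and siNeg PE below for 2. Over all 12226 features, these shares were 11.2%, 12.9%, 7.12% and 10.3%. Among the 26 negative members it was siChaer PE below for 10, siNeg PE above for 8, siChaer above for 5 and siNeg below for 3, beside 19.1%, 9.82%, 20.6% and 9.08% of all features. In the plot of levels by library, the siChaer median of the positive members likewise lies farthest from 0.

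The largest positive group was low in unstimulated cells with Chaer siRNA and closer to the control level once phenylephrine was added. Its 14 members lay 0.53 to 1.49 log2 units below the median of the other libraries in siChaer. ENSRNOG00000012609, with a gene model of 1225 bp, had the largest difference of this group among features with at least 100 reads in every library. Its level was 87.1 RPKM (84.4 to 89.8) in siNeg, 59.2 RPKM (56.9 to 61.5) in siNeg PE, 48.0 RPKM (46.1 to 49.9) in siChaer and 77.3 RPKM (74.9 to 79.8) in siChaer PE. The lowest library was siChaer and the highest siNeg, and the counting intervals of all 4 were apart. Phenylephrine went with a level 1.47 times lower (1.40 to 1.55) under control siRNA and 1.61-fold higher (1.53 to 1.70) under Chaer siRNA. The log2 difference was 1.23, and 1.25 (1.14 to 1.35) when taken on read counts without the added 1 RPKM.

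A more abundant member of this group, of 835 bp, had 99.6 RPKM in siNeg, 97.7 in siNeg PE, 52.7 in siChaer and 104.7 RPKM in siChaer PE. Only the unstimulated Chaer siRNA library stood apart. A member of 4760 bp had 17.8 RPKM in siNeg, 14.1 in siNeg PE, 9.67 in siChaer and 18.0 RPKM in siChaer PE. One of 8156 bp, the longest gene model among the members, went from 10.2 to 7.35 RPKM with phenylephrine under control siRNA and from 4.94 to 7.97 RPKM under Chaer siRNA. In all 3 the gap between the siRNAs on the log2 scale was larger at rest than under phenylephrine.

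A pair of positive members in that group were higher with phenylephrine under both siRNAs, but from a lower start with Chaer siRNA. The one of 4766 bp went from 8.66 to 14.4 RPKM with control siRNA and from 4.49 to 17.8 RPKM with Chaer siRNA. That of 6351 bp went from 9.42 to 14.5 RPKM and from 4.95 to 17.1 RPKM. For both, siChaer was the lowest library and siChaer PE the highest.

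The 9 positive members that stood out in siChaer PE had their highest level with the agonist after Chaer siRNA. ENSRNOG00000004496, of 4209 bp, had 23.1 RPKM (22.3 to 23.9) in siNeg, 23.8 RPKM (23.0 to 24.6) in siNeg PE, 18.1 RPKM (17.5 to 18.8) in siChaer and 46.4 RPKM (45.4 to 47.4) in siChaer PE. Its phenylephrine ratio was 1.03-fold (0.984 to 1.08) under control siRNA, an interval that includes no change, and 2.56-fold (2.45 to 2.67) under Chaer siRNA. The log2 difference was 1.27, and 1.31 (1.22 to 1.40) on read counts. With phenylephrine present it was 1.95-fold higher (1.87 to 2.03) with Chaer siRNA than with control.

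The most abundant member of either sign had this form as well. It was 2013 bp long, with 138.7 RPKM in siNeg, 145.9 in siNeg PE, 113 in siChaer and 253.8 RPKM in siChaer PE, and its counts reached 20862 reads. Again siChaer PE alone was high, and its difference of 1.09 had a counting interval of 1.04 to 1.15 on reads. A weaker example of 2034 bp had 6.39, 4.83, 4.16 and 8.50 RPKM in siNeg, siNeg PE, siChaer and siChaer PE.

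The 9 positive members that stood out by a high siNeg library were lower in each of the 3 other libraries. Most still crossed direction, with median log2 phenylephrine ratios of -0.71 under control siRNA and 0.43 under Chaer siRNA. Those farthest from the other libraries were instead lower with phenylephrine under both siRNAs. The clearest of these was a feature of 4533 bp, with 17.6 RPKM in siNeg, 4.53 in siNeg PE, 5.22 in siChaer and 2.73 RPKM in siChaer PE. The log2 ratios for phenylephrine were -1.75 under control siRNA and -0.74 under Chaer siRNA, the same direction at a smaller size. A feature of 3078 bp had 21.7, 7.95, 8.65 and 7.18 RPKM in the same order, with ratios of -1.34 and -0.24.

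The largest differences of the negative sign belonged to the 8 features with siNeg PE above the other libraries, whose level was high with phenylephrine under control siRNA. ENSRNOG00000008943, of 1284 bp, had 13.8 RPKM (12.7 to 14.9) in siNeg, 55.8 RPKM (53.6 to 58.0) in siNeg PE, 11.8 RPKM (10.9 to 12.8) in siChaer and 9.65 RPKM (8.83 to 10.5) in siChaer PE. One library was high and the other 3 lay within 9.65 to 13.8 RPKM. Its log2 difference was -2.21, and -2.31 (-2.52 to -2.09) on read counts. ENSRNOG00000037645, of 991 bp, had 3.63 RPKM (3.04 to 4.30) in siNeg, 10.3 RPKM (9.25 to 11.4) in siNeg PE, 7.69 RPKM (6.86 to 8.60) in siChaer and 4.57 RPKM (3.94 to 5.28) in siChaer PE. Under control siRNA phenylephrine went with a 2.84-fold higher level (2.32 to 3.49), and under Chaer siRNA with one 1.68 times lower (1.40 to 2.03). Without phenylephrine it was 2.12-fold higher (1.72 to 2.62) with Chaer siRNA, and with phenylephrine 2.25 times lower (1.88 to 2.70), so the order of the siRNAs turned.

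**Figure D3:**
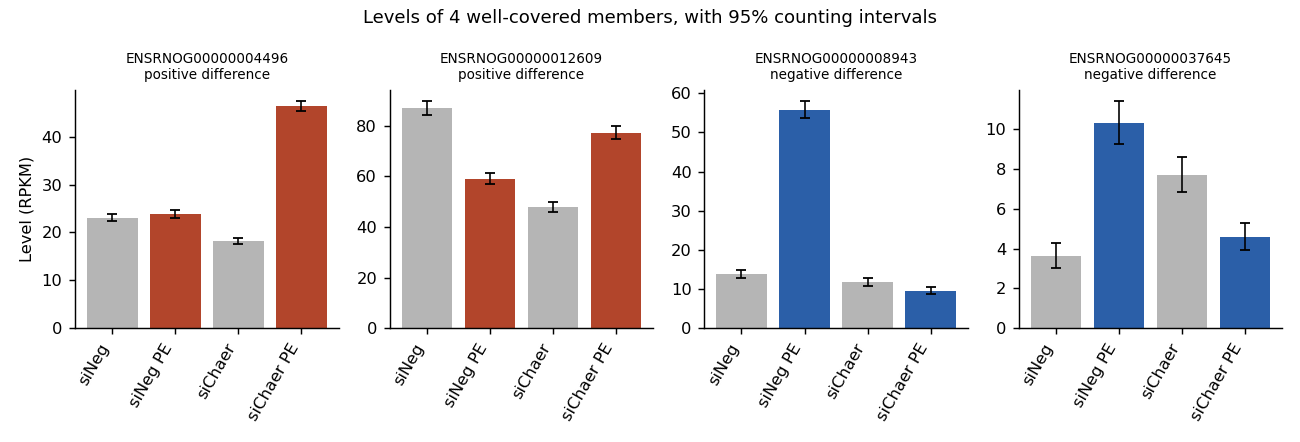
Bars are RPKM in the single library of each group, with 95% Poisson counting intervals, and grey bars are the libraries without phenylephrine. ENSRNOG00000004496 is high in siChaer PE alone (46.4 RPKM) and ENSRNOG00000008943 in siNeg PE alone (55.8 RPKM), while ENSRNOG00000012609 and ENSRNOG00000037645 change in opposite directions under the 2 siRNAs.

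The bars for ENSRNOG00000008943 and ENSRNOG00000037645 show a single high library in the first and a turn of direction in the second. The first position by size, however, belonged to a feature of 1015 bp with 0 reads in siNeg, 288 in siNeg PE, 5 in siChaer and 45 in siChaer PE. It was higher with phenylephrine under both siRNAs, and its difference of -2.28 depended on the added 1 RPKM because of the empty library.

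Other members of that group kept a smaller response under Chaer siRNA. A feature of 3403 bp, the longest of the negative sign, went from 2.99 to 14.6 RPKM with phenylephrine under control siRNA and from 4.69 to 8.13 RPKM under Chaer siRNA. One of 1668 bp went from 0.373 to 3.92 RPKM and from 0.490 to 1.60 RPKM, and one of 763 bp from 2.34 to 9.43 RPKM and from 2.56 to 4.56 RPKM. A feature of 2739 bp went from 7.26 to 18.7 RPKM under control siRNA and from 7.55 to 8.33 RPKM under Chaer siRNA. In these 4 the unstimulated levels of the siRNAs lay closer together than the stimulated ones on the log2 scale.

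The 10 negative members with a low siChaer PE library had fewer reads and smaller phenylephrine ratios under control siRNA than the group with a high siNeg PE library. The clearest was a feature of 781 bp, with 4.22 RPKM in siNeg, 5.76 in siNeg PE, 5.07 in siChaer and 1.60 RPKM in siChaer PE, on 122, 159, 160 and 51 reads. Its siChaer PE level alone was low. The log2 phenylephrine ratios of the 10 ran from 0.08 to 0.59 under control siRNA and from -1.42 to -0.65 under Chaer siRNA. Their gene models were 59 to 942 bp long, with a median of 294 bp, and their mean reads had a median of 52.9, beside 191 in the group with a high siNeg PE library.

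The 5 negative members with a high siChaer library were all short, at 60 to 255 bp, and had mean reads of 14.75 to 97. The best covered, of 171 bp, had 12.2 RPKM in siNeg, 16.7 in siNeg PE, 18.8 in siChaer and 11.5 RPKM in siChaer PE. The 3 with a low siNeg library included a feature of 2744 bp with 0.966, 4.70, 2.99 and 4.60 RPKM in siNeg, siNeg PE, siChaer and siChaer PE. In that feature phenylephrine went with a higher level under both siRNAs, from a start that was higher with Chaer siRNA.

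The signs differed in the length of the gene model, which entered the rule only through RPKM. Negative members had a median length of 324 bp and positive members of 1890 bp, beside 1953 bp for all features tested. In the shortest 10% of features, up to 675 bp, lay 16 of 26 negative and 9 of 34 positive members. In the longest 10%, from 4464 bp, lay 0 negative and 7 positive members. The same lean appeared over all features. Their median difference was -0.13 in the shortest 10% and 0.05 in the longest 10%, and Spearman's rho of difference and length was 0.16 across 12226 features, which share the same 4 libraries and are not independent. When features were put in 10 bins by length and the median of each bin was taken out, a choice made after seeing the data, 51 positive and 13 negative members were found. Of the 60 members 43 were among them, 30 positive and 13 negative.

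**Figure D4:**
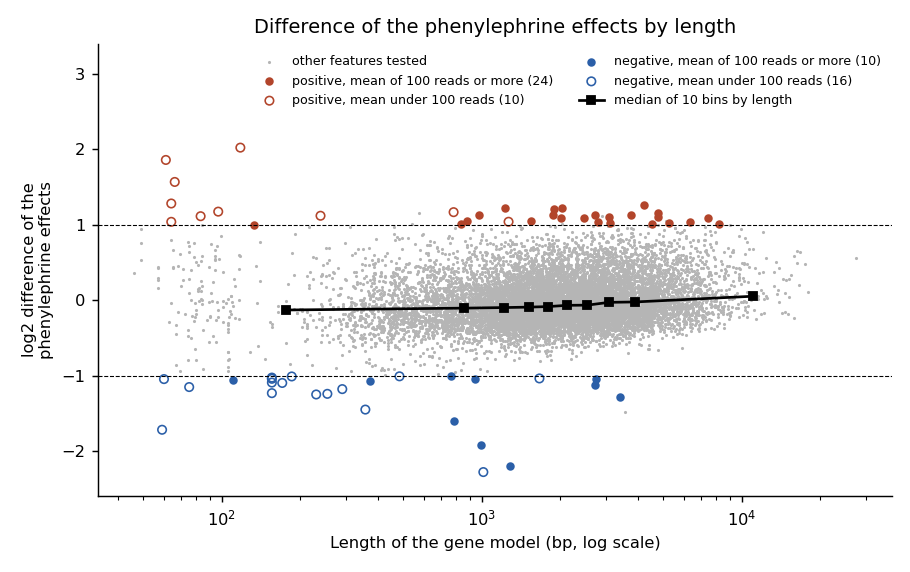
The log2 difference of the phenylephrine effects is plotted against the length of the gene model on a log axis, 1 point per feature, with dashed lines at 1 and -1. Filled circles are members with a mean of at least 100 reads and open circles those below. Black squares, medians of 10 bins by length, go from -0.13 to 0.05, and open circles gather at the short end.

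Read number went with length, as the plot of difference by length shows. The median member had 447 mean reads in the positive and 90.5 in the negative sign, beside 891 for all features. A mean under 20 reads was found for 7 positive and 5 negative members, beside 0.687% of all features. On the shortest model of the positive sign, 61 bp, a single read was worth 0.401 to 0.464 RPKM. The largest positive difference, 2.02, was that of a feature of 118 bp with 7 reads in siNeg, 2 in siNeg PE, 2 in siChaer and 11 in siChaer PE. The next 3 positive members had at most 10 reads in any library. With a mean of at least 100 reads, 24 positive and 10 negative members were left, with median lengths of 2759 bp and 966.5 bp beside 2075 bp for all features at that depth. Of those, 7 positive and 0 negative members were in the longest 10%, and 1 positive and 2 negative in the shortest. The part of length and of read number in the differences was not tested further.

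Several short members may not be separate measurements. There were 4 negative members with a model of exactly 156 bp, among 6 tested features of that length. All 6 had a negative difference, from -1.23 to -0.32 with a median of -1.04. This length was looked at because it was the most frequent among the members. As 4 of the 6 were chosen for a negative difference, the shared sign and the median follow largely from that choice. Their sequences were not compared, so it is not known here whether reads could be shared between near-identical copies. The strand setting of the counting is not given in the sources used here, and reads of overlapping genes on opposite strands may not be separated.

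Counting error alone left most differences apart from 0. On read counts, with 0.5 reads added to each, the interval of the difference excluded 0 for 28 of 34 positive and 22 of 26 negative members. At these depths it also excluded 0 for 6543 of all 12226 features (53.5%), so this says little about a member. The interval lay wholly past 2-fold for 17 positive and 8 negative members, beside 30 of all features. Members were chosen for a 2-fold difference on these same reads, so this contrast follows from the choice.

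**Figure D5:**
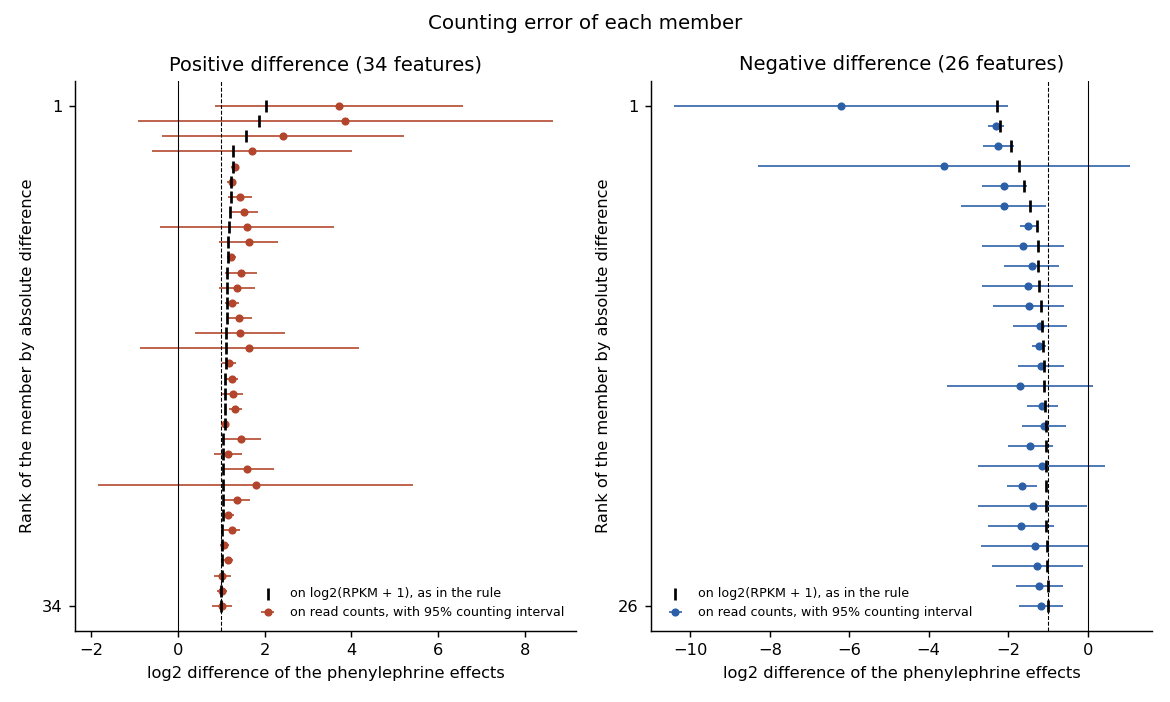
Each row is 1 member in order of its absolute difference, with the log2 difference on read counts as a point with its 95% counting interval and the difference on log2(RPKM + 1) as a black tick. The dashed line marks 2-fold and the solid line 0. The wide intervals are those of features with few reads, among them 4 of the 5 largest positive differences.

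The threshold passed through a dense range of values, as the row of ticks close to the dashed line shows. Just inside were positive differences of 1.003 and 1.005 and negative ones of -1.002 and -1.010. Just outside were 0.997 and 0.995 in the positive and -0.996 and -0.974 in the negative sign. The feature just outside at 0.997, of 9054 bp, had 13.1 RPKM in siNeg, 9.80 in siNeg PE, 5.20 in siChaer and 8.47 RPKM in siChaer PE, the same low siChaer library as the largest positive group. With a limit of 0.8 in place of 1, there were 148 positive and 58 negative members, and with 1.5 there were 3 and 5.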

How the data were processed

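The 4 libraries were stranded TruSeq preparations of total RNA extracted with TRIzol, per the labels' protocols. Reads were aligned with TopHat2 to genome build rn5, per the submitters' processing notes. How reads were counted, with which annotation, strand setting and filters, is not given in the sources used here. For every feature the authors deposited a read count and an RPKM value, per the file headers. Gene lengths and the read total of a library were recovered by dividing counts by RPKM, which gave whole lengths to 8.81e-08 bp.

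Members were chosen on log2 ratios with a pseudocount of 1 RPKM, as in the results. With 1 library per group no test was made. Intervals at 95% were exact Poisson for levels, exact binomial for ratios of 2 libraries, and normal on the log of counts (0.5 reads added) for the difference. TMM factors came from edgeR 4.0.16 under R 4.3.3, and the rest was computed with Python 3.11.15, numpy 2.4.6, pandas 2.3.3 and scipy 1.17.1. The rule was run on simulated Poisson counts, which hold no variation between cultures. Differences were planted only in features of at least 5 RPKM, so the run did not cover less abundant members. The members and lists were chosen with earlier results of these data known. The 14 gene lists and the marker lists could not be applied without symbols. The rule for named genes therefore gave 2 identifiers per sign, taken after seeing the data as the largest differences with at least 100 reads in every library.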

Additional observations from a re-analysis of the deposited data

Results flagged for a closer look

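Opposite directions in the single libraries marked each of the 4 features given by identifier, and none of these differences was tested. The rule and the pick of large differences favour opposite directions. The gap between the siRNA ratios is the same quantity as that between the phenylephrine ratios, so they are not separate results. ENSRNOG00000012609 (log2 difference 1.23) and ENSRNOG00000037645 (-1.93) had phenylephrine ratios of opposite sign under the 2 siRNAs, and the siRNAs also differed in opposite directions at rest and under phenylephrine. ENSRNOG00000008943 (-2.21) had phenylephrine ratios of opposite sign, 1.94 with control and -0.26 with Chaer siRNA. ENSRNOG00000004496 (1.27) had Chaer siRNA ratios of opposite sign, -0.33 at rest and 0.93 under phenylephrine.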

How the results depend on the processing

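The number of members depended on the pseudocount, the filter and the threshold. Against 34 positive and 26 negative members, a pseudocount of 0.1 RPKM gave 128 and 61, one of 5 RPKM gave 3 and 3, a mean RPKM of at least 5 gave 18 and 11, a limit of 0.8 gave 148 and 58, and one of 1.5 gave 3 and 5. With the 20 most abundant features left out of the scaling there were 59 positive members. Centring within 10 bins of length left 13 negative members, and a mean of at least 100 reads left 10, both chosen after seeing the data. Of the members, 3 positive and 2 negative were found again under both other pseudocounts and all 3 other scalings. The 4 features given by identifier kept their direction under the pseudocounts, scalings and length centring run. Their differences were 1.12 to 1.33 for ENSRNOG00000004496 and 1.16 to 1.32 for ENSRNOG00000012609. They were -2.30 to -1.89 for ENSRNOG00000008943 and -2.22 to -1.23 for ENSRNOG00000037645. As these 4 were picked for large differences on at least 100 reads in every library, the kept direction follows largely from that choice. No paired analysis was possible because there is 1 library in a group and no replicate number in the labels. For the same reason no library could be left out.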
